A study of Homo sapiens with 8 samples.

Results

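The enzymes that add acetyl groups to histones and those that remove them were followed as one gene family in A549, a line from a human lung adenocarcinoma that serves here as a model of the epithelial-mesenchymal transition (EMT). The members are the genes whose probe sets the array annotation gives to a single symbol beginning with KAT, HDAC or SIRT and a number, together with EP300, CREBBP, HAT1, NCOA1, NCOA2, TAF1 and ELP3. NCOA3 also belongs to the rule and was not analysed here. This gave 34 of the 19775 genes on the arrays, which are 32 enzymes and 2 antisense RNAs (HDAC2-AS2 and HDAC4-AS1) that share the first letters of their symbols. Each gene is described by its brightest probe set by the mean of all arrays, chosen among the 82 probe sets of the members. The 4 groups were spheroids exposed for 2 rounds of 48 h to TNF (10 ng/ml) together with TGFβ (2 ng/ml) (3D treated), spheroids given vehicle (3D control), monolayers given the same cytokines (2D treated) and monolayers given vehicle (2D control). All groups come from the single line A549, with no other cell type added, and the spheroids were formed in hanging droplets. Each group has 2 Affymetrix U133 plus 2.0 arrays, 8 in all, which the methods call technical duplicates and the deposited design biological replicates. The p-values therefore measure the spread between these arrays, which may be technical only. Values are log2 expression after GCRMA, a background correction that takes probe base composition into account, and no value is below 2.23. A value below its array's median, which lies between 2.43 and 2.50, is called near background here.

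Lysine acetylation loosens the contact between histone tails and DNA and is read by bromodomain proteins, so acetyltransferases mostly act as co-activators and deacetylases as co-repressors. Acetyltransferases fall into the GNAT, MYST and p300/CBP families and draw on acetyl-CoA. Zinc-dependent deacetylases (HDACs) are grouped into class I, which works in nuclear co-repressor complexes, class IIa, which shuttles between nucleus and cytoplasm and binds MEF2 factors, class IIb and class IV, while sirtuins consume NAD and are spread over nucleus, cytosol and mitochondria. Deacetylases recruited by SNAI1 and ZEB factors are known for silencing CDH1, the E-cadherin gene, during EMT.

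The largest change among the members was that of HDAC9, a class IIa deacetylase, and promoter windows of this gene are shown first. No window of another member held a match to the AP-1 or the MEF2 motif searched. The windows run from 250 bases before to 50 bases after each start in RefSeq (GRCh38.p14), and 28 of the 34 members had at least 1, with 49 windows in all. In HDAC9 window A, at chr7:18495499-18495798 on the plus strand, the capitals mark TGATTCA, a match to the AP-1 motif TGANTCA. In window B, chr7:18086575-18086874 on the plus strand, they mark a match to the MEF2 motif, and in window C, chr7:18509020-18509319 on the plus strand, a match to the NF-κB motif. Not shown are the HDAC9 windows at chr7:18495460-18495759, which overlaps window A and holds the same TGATTCA, and at chr7:18496012-18496311, without a match. HDAC9 had more windows than most members, which gives more places for a match. The SIRT5 window, chr6:13574351-13574650 on the plus strand, belongs to the member with the largest decrease. It is 1 of 2 overlapping windows of SIRT5, and neither held a match to any of the motifs.
HDAC9 window A: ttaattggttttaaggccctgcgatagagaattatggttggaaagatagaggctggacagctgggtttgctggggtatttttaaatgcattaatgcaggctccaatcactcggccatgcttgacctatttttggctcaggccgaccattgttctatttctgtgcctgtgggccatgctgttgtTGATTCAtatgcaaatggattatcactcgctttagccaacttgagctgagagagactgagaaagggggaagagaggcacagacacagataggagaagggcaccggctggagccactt
HDAC9 window B: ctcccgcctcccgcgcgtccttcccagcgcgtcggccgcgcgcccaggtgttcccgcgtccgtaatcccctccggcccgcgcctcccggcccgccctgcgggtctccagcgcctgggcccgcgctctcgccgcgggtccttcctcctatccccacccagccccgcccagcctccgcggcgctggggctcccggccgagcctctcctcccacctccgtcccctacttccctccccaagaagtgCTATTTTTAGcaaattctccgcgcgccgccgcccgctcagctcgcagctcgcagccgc
HDAC9 window C: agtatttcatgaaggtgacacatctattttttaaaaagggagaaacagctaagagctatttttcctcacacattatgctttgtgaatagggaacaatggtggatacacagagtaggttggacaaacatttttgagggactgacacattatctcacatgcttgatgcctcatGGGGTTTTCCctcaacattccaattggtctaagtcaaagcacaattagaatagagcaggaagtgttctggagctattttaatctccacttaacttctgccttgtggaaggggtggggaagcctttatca
SIRT5 window: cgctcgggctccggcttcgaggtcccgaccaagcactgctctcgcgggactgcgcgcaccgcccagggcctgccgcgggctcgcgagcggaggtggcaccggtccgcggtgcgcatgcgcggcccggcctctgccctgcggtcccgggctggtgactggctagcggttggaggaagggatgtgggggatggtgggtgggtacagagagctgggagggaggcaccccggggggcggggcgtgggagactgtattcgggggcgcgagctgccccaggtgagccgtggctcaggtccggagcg

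Both strands were searched, none of the matches shown overlaps a match to another motif, and the motifs were chosen with the expression values known. The AP-1 motif was present in 7.71% of all 35116 RefSeq windows and in 2 of the 49 member windows, both of HDAC9 and overlapping each other. For MEF2 the share was 2.99% of all windows, with 1 match among the member windows. The NF-κB motif occurred in 11.3% of all windows and in 11 of the 49 member windows, from CREBBP, HDAC3, HDAC8, HDAC9, HDAC10, KAT6B, SIRT3, SIRT4 and SIRT6. Member windows were richer in G and C than windows in general, with a median of 67.3% against 58.7% and 29 CpG dinucleotides against 14. HDAC9 was mixed in this respect, as window B had 75.0% G and C with 41 CpG dinucleotides, window A 47.3% with 5, and window C 40.0% with 0. The arrays do not tell which of these starts was in use, and a motif match is a description of the sequence.

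Treatment of spheroids changed 9 of the 34 members (26.5%), all on the basis of the limma fit with adjustment over all probe sets. HDAC9 rose, and HDAC1, SIRT5, ELP3, HAT1, KAT2B, KAT6A, KAT7 and the antisense RNA HDAC4-AS1 fell. Over all genes 16.4% were called in this comparison, and over the 12661 genes that exceeded the array median on 2 arrays or more 25.3%, so the members' share was near that of genes with a measurable signal. In the downward direction 8 of 34 members (23.5%) were called, against 10.8% of all genes and 16.8% of the brighter ones. In the upward direction it was 1 of 34 (2.94%), against 5.53% and 8.42%. The median log2 fold-change was −0.35 over the members, 0 over all genes and −0.12 over the brighter genes. By sign alone, 25 of the 32 enzymes were lower in 3D treated than in 3D control spheroids and 7 were higher, where 8608 of all 19775 genes and 7632 of the 12661 brighter genes were lower. The 2 arrays of each group did not overlap for 27 of the 34 members, against 47.2% of all genes and 71.2% of the brighter genes. Fewer cells carrying an mRNA and less mRNA per cell cannot be told apart in such bulk samples. The count of 9 dropped to 4 without 3D control replicate 1, to 5 without 3D control replicate 2 and to 5 without either 2D treated array, and a fit to the 4 spheroid arrays alone called only ELP3.

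**Figure D1:**
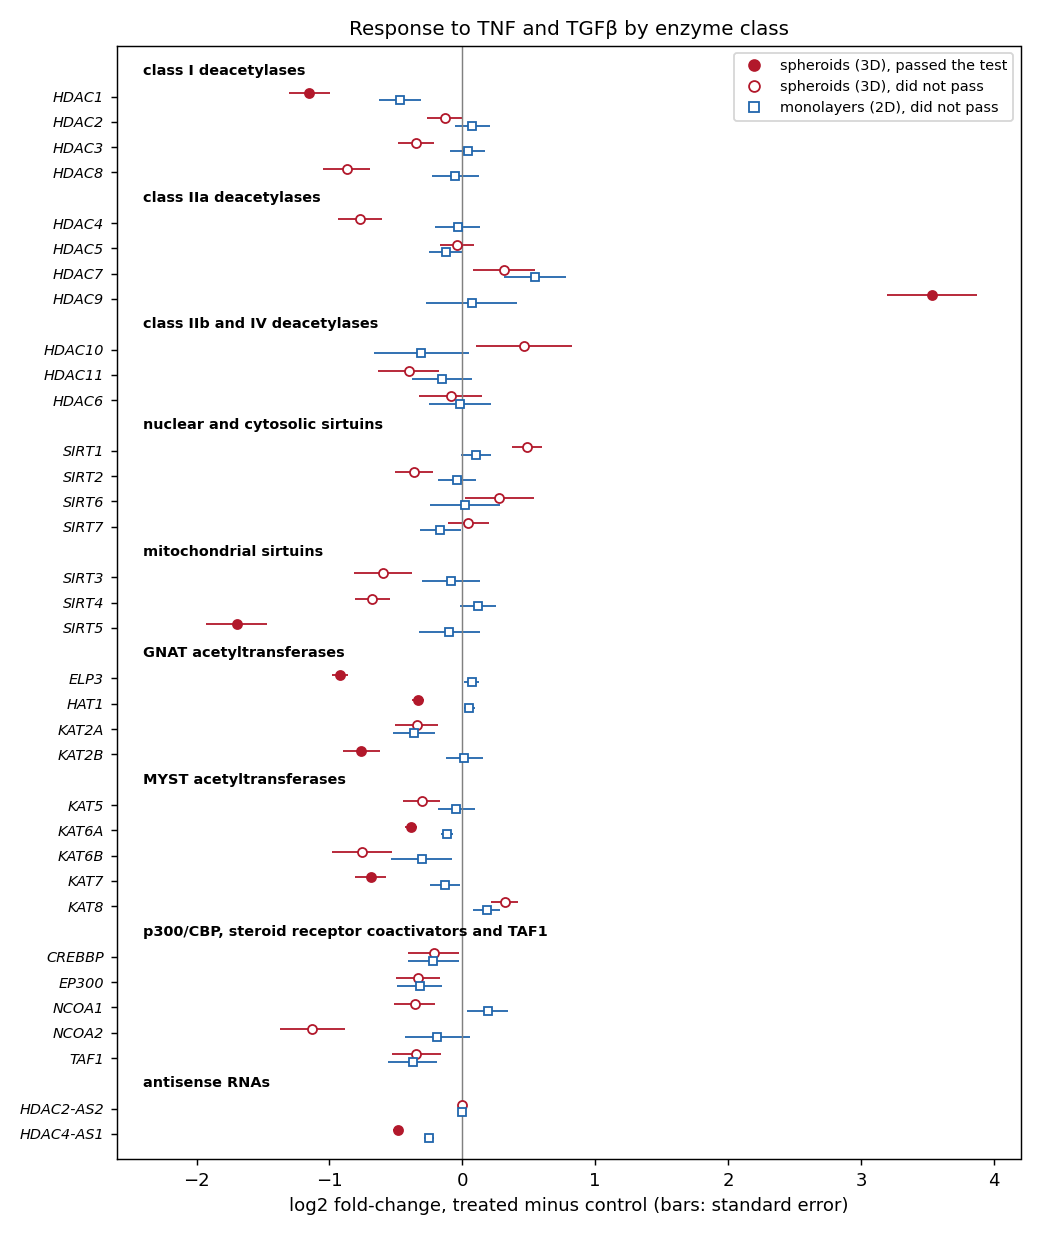
Log2 fold-change of each member by enzyme class, with the standard error as a bar. Red circles give 3D treated minus 3D control (filled where the test was passed) and blue squares 2D treated minus 2D control, none of which passed. HDAC9 lies alone at 3.53 on the right, and most of the other circles lie left of 0.

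Markers of the line moved with the treatment of spheroids. Of 9 genes that mark A549-like lung epithelium, 7 fell, among them CDH1 (−0.91, SE 0.11) and EPCAM (−2.20, SE 0.39), and EGFR rose (2.08, SE 0.26), all with every array above its median. The summed log2 level of the list was 108 and 109 on the 3D treated arrays against 114 on both 3D control arrays. Of 3 measured mesenchymal genes of EMT, CDH2, the N-cadherin gene, rose by 2.99 (SE 0.43). VIM (0.32, SE 0.08) and FN1 (0.08, SE 0.10) were not called. The leukocyte gene PTPRC stayed between 2.23 and 2.30 on all arrays, and 3 of 5 leukocyte genes and 3 of 4 endothelial genes were near background on all of them. The leukocyte list summed to 18.0 and 18.3 on 3D treated arrays and to 23.7 and 23.9 on 3D control arrays. Of its genes CD14, which was above the median on all arrays, fell by 2.86 (SE 0.55). The other 4 measured were not called, and the fall of CD14 covers only a part of the shift in the sum. Fibroblast genes summed to 9.61 and 12.8 on the 3D treated arrays, against 9.08 and 9.94 on 3D control arrays. The part of these shifts in the members' values was not tested.

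Class IIa deacetylases repress MEF2 target genes and are moved out of the nucleus when kinases phosphorylate them. HDAC9 read 5.47 and 6.46 on the 3D treated arrays, against 2.38 and 2.49 on the 3D control arrays. In monolayers it read 2.38 and 2.24 after treatment, against 2.24 and 2.23 with vehicle. HDAC9 was thus well above background in treated spheroids alone, with all 2D arrays and 3D control replicate 1 near background and 3D control replicate 2 just above its array median. Its log2 fold-change in spheroids was 3.53 (SE 0.34, 95% interval 2.61 to 4.45, limma adjusted p = 0.0106), which is 11.6-fold. With each control array taken at the higher of its value and its median, the change was 11.4-fold. That value keeps the mean of the treated arrays fixed and is not a lower limit of the change. The call was lost without 3D control replicate 1 (adjusted p = 0.0515) and with the spheroid arrays alone (0.121), at log2 fold-changes of 3.48 and 3.53. The other 4 probe sets of HDAC9 were near background on at least 7 of the 8 arrays, so 1 probe set carries the result.

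None of the other class IIa genes was called. HDAC4 read 6.81 and 6.34 on 3D treated arrays, against 7.29 and 7.40 on 3D control arrays, and 8.13 to 8.24 on the 4 monolayer arrays. Its groups did not overlap, yet the difference of −0.77 (SE 0.17) missed the threshold (adjusted p = 0.0658), and its second bright probe set gave −0.95 (adjusted p = 0.0765). HDAC5 differed by −0.04 (95% interval −0.39 to 0.31) and HDAC7 by 0.31 (−0.32 to 0.95). HDAC7 had the same value, 5.38, on both 3D control arrays, and its 3D treated arrays at 5.38 and 6.01 overlapped them.

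**Figure D2:**
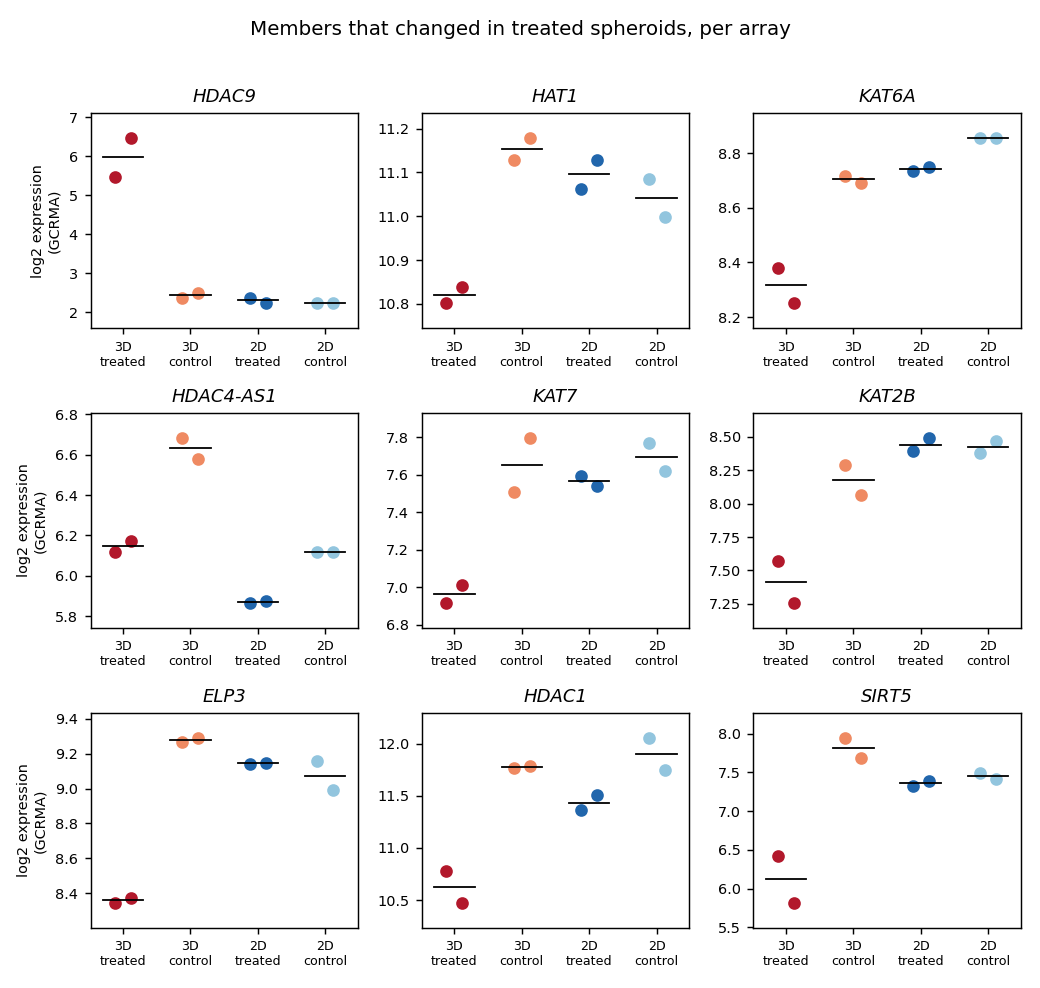
Log2 expression on each array of the 9 members that changed in treated spheroids, with the group mean as a black line (n = 2 arrays per group). Each panel has its own axis. HDAC9 is high in 3D treated spheroids only, and in the other panels except HDAC4-AS1 the 3D treated arrays lie below all 6 other arrays.

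Among the class I deacetylases HDAC1 fell. HDAC1 and HDAC2 are the catalytic subunits of the SIN3, NuRD and CoREST co-repressor complexes, and HDAC3 that of the NCOR complex. HDAC1 was at 10.78 and 10.47 on 3D treated arrays, against 11.77 and 11.79 on 3D control arrays. In monolayers it was at 11.36 and 11.50 after treatment, against 12.05 and 11.75 with vehicle. Both treated groups lay below their controls without overlap, and the log2 fold-change in spheroids was −1.15 (SE 0.16, adjusted p = 0.0213), a 2.22-fold decrease. The call of HDAC1 did not survive leaving out 3D treated replicate 2, either 3D control array or either 2D treated array (adjusted p from 0.0532 to 0.0955, log2 fold-change from −1.16 to −1.0), nor a fit to the spheroid arrays alone (0.117). HDAC2, at 10.44 and 10.23 against 10.46 and 10.48, differed by −0.13 (SE 0.13, adjusted p = 0.747), so the paralogs HDAC1 and HDAC2 were on different sides of the threshold, with no test of the gap between them. HDAC3 differed by −0.35 (adjusted p = 0.255). HDAC8, which deacetylates cohesin, was at 7.55 and 7.05 in 3D treated spheroids, against 8.24 and 8.11 in 3D controls. Its difference of −0.87 just missed the threshold (adjusted p = 0.0553), and another probe set of the gene passed it (−0.97, adjusted p = 0.0474).

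Class IIb and IV deacetylases made no calls. HDAC6, the main tubulin deacetylase, differed by −0.09 (95% interval −0.72 to 0.54), HDAC11, the single class IV enzyme, by −0.40 (−1.02 to 0.21), and HDAC10, which acts on polyamines, by 0.46 (−0.50 to 1.43). The value of HDAC10 rests on 3D treated replicate 1 at 5.86, since 3D treated replicate 2 at 4.86 lay between the 3D controls at 4.97 and 4.82.

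By sign the 3 mitochondrial sirtuins were lower in treated spheroids, and SIRT5 passed the test. SIRT5 removes succinyl, malonyl and glutaryl groups from metabolic enzymes. It read 6.42 and 5.81 on 3D treated arrays, against 7.95 and 7.69 on 3D control arrays, and 7.33 and 7.39 in 2D treated, against 7.50 and 7.42 in 2D control monolayers. The treated spheroids therefore held the lowest values of all 4 groups. The decrease of SIRT5 was 3.25-fold (log2 fold-change −1.70, SE 0.23, adjusted p = 0.0208), at the 1.74th percentile of all genes. The call depended on single arrays, because without either 3D control, 2D treated or 2D control array its adjusted p lay between 0.0599 and 0.0911, and it was 0.170 in the spheroid arrays alone. The other 3 SIRT5 probe sets above the array median on all arrays gave 0.02, 0 and 0. Those at 0 held the same value on every spheroid array, 3.34 and 2.65. The remaining probe set read 4.72 on both 3D treated arrays, against 4.72 and 4.68 on 3D control arrays. Values repeated in this way give no measure of a change. SIRT3, the main mitochondrial deacetylase, was at 7.12 and 6.54 in 3D treated spheroids, against 7.43 on both 3D control arrays (−0.60, adjusted p = 0.219). SIRT4 was low throughout, at 2.78 and 2.70 against 3.59 and 3.24 (−0.68, adjusted p = 0.0521).

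None of the 4 nuclear and cytosolic sirtuins was called, and by sign 3 of them were higher in treated spheroids. SIRT1, which deacetylates p53 and many transcription factors, read 10.15 and 10.06 on 3D treated arrays, against 9.72 and 9.52 on 3D control arrays. These groups did not overlap and the treated arrays were the highest of all 8, but the difference of 0.49 (SE 0.11) did not pass (adjusted p = 0.0774). SIRT2, a tubulin deacetylase of the cytosol, differed by −0.36 (adjusted p = 0.253), SIRT6, a chromatin-bound enzyme of DNA repair, by 0.28 (0.713), and SIRT7, found in nucleoli, by 0.04 (adjusted p = 1).

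By sign all 4 GNAT acetyltransferases were lower in treated spheroids, and 3 of them passed the test, where 10.8% of all genes and 16.8% of the brighter ones were called lower. ELP3, the catalytic subunit of Elongator, read 8.34 and 8.37 on 3D treated arrays, against 9.27 and 9.29 on 3D control arrays. In monolayers ELP3 read 9.14 and 9.15 after treatment, against 9.16 and 8.99 with vehicle. Its replicates lay close together and only the treated spheroids stood apart. The log2 fold-change was −0.92 (SE 0.06, adjusted p = 0.00463), a 1.89-fold decrease. ELP3 kept its call without each of the 8 arrays and in the spheroid arrays alone (adjusted p = 0.0297), where no other member did. KAT2B (PCAF), a co-activator subunit of SAGA-type complexes, was at 7.57 and 7.26 in 3D treated spheroids, against 8.29 and 8.06 in 3D controls (−0.76, SE 0.14, adjusted p = 0.0424). The call of KAT2B was lost in 7 of the 8 fits without 1 array, remaining only without 3D treated replicate 1, with adjusted p up to 0.153 and a log2 fold-change of −0.60 without 3D treated replicate 2. HAT1, which acetylates newly made histone H4 before its deposition, was at 10.80 and 10.84, against 11.13 and 11.18. Its decrease was small (−0.33, SE 0.04, adjusted p = 0.0189) and lost its call without any 1 of the spheroid arrays (adjusted p from 0.0542 to 0.0841). KAT2A (GCN5), the paralog of KAT2B, differed by −0.34 (SE 0.16, adjusted p = 0.364).

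Of the MYST family KAT6A and KAT7 fell. KAT7 (HBO1), which acts at replication origins and on histone H3, read 6.92 and 7.01 on 3D treated arrays, against 7.51 and 7.80 on 3D control arrays (−0.69, SE 0.12, adjusted p = 0.0350). It was called in 1 of the 8 fits without an array, that without 3D control replicate 1, and in the other 7 its adjusted p was 0.0688 to 0.107. Quantile normalization of the arrays also ended the call of KAT7 (−0.55, adjusted p = 0.0777). KAT6A (MOZ) read 8.38 and 8.25, against 8.72 and 8.69 (−0.39, SE 0.05, adjusted p = 0.0154). The call of KAT6A was lost without either 3D control array (0.0721 and 0.0656), and a second probe set, above background on all arrays, gave −0.05 (adjusted p = 1). KAT6B, its paralog, was at 6.88 and 6.82 against 7.45 and 7.76, a larger difference with a wider spread (−0.76, SE 0.23, adjusted p = 0.140). KAT5 (TIP60) differed by −0.30 (adjusted p = 0.352), and KAT8 (MOF), which acetylates histone H4 at active genes, by 0.32 in the opposite direction (SE 0.10, adjusted p = 0.161). KAT5 had identical values on both 3D treated arrays, 7.52, and on both 2D control arrays.

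The p300/CBP and steroid receptor co-activator group was lower in all 5 members with no call. NCOA2, a p160 co-activator of nuclear receptors, read 8.49 and 8.25 on 3D treated arrays, against 9.63 and 9.37 on 3D control arrays. In monolayers NCOA2 read 9.77 and 10.20 after treatment, against 9.95 and 10.40 with vehicle. The spheroid groups did not overlap, and the difference of −1.13 (SE 0.24), a 2.19-fold one, was larger in size than most of the called members' but missed the threshold (adjusted p = 0.0650). NCOA2 passed in 3 of 18 alternative fits. CREBBP and EP300, the general co-activators CBP and p300, differed by −0.21 (95% interval −0.73 to 0.30) and −0.33 (−0.78 to 0.12). NCOA1 differed by −0.36 (adjusted p = 0.317), with another probe set called at −0.54 (adjusted p = 0.0408), and TAF1, the largest subunit of TFIID, by −0.35 (adjusted p = 0.469).

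The antisense RNA HDAC4-AS1 also fell. It read 6.12 and 6.17 on 3D treated arrays, against 6.68 and 6.58 on 3D control arrays. In monolayers it read 5.86 and 5.88 after treatment, against 6.12 on both 2D control arrays. The value was identical on both 2D control arrays and 3D treated replicate 1. A group without spread lowers the SE, which all groups share. The change in spheroids was −0.49 (SE 0.04, adjusted p = 0.00735) and held without each of the 8 arrays, but not in the spheroid arrays alone (0.103). HDAC2-AS2 was at the lowest value, 2.23, on every array.

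**Figure D3:**
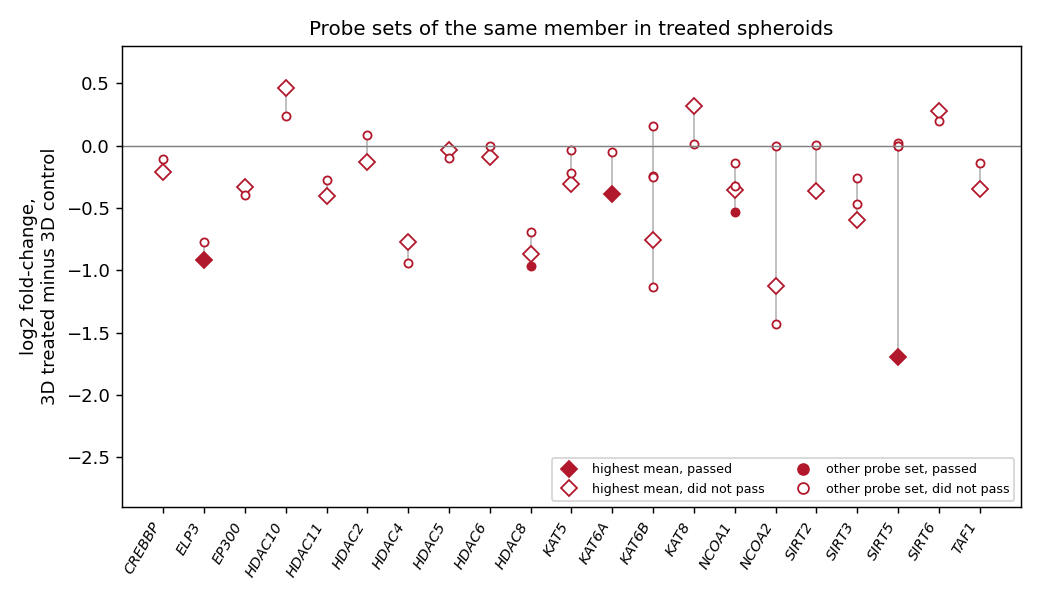
Log2 fold-change of 3D treated minus 3D control for every probe set that exceeded the array median on 2 arrays or more, for the members that have at least 2 such probe sets. Diamonds are the brightest probe set of a gene, circles its others, and filled symbols passed the test. The probe sets of NCOA2, SIRT5 and KAT6B are spread widely, while those of HDAC8 and ELP3 lie together below 0. The points at 0 of NCOA2 and SIRT5 are probe sets with the same value on every spheroid array.

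Beside the chosen probe sets, 48 others belong to members, and 16 of them were near background on at least 7 arrays. Of the 32 that exceeded the array median on 2 arrays or more, 2 were called in treated spheroids, those of HDAC8 and NCOA1, and 0 were called with the opposite sign to the chosen one. The second probe set of ELP3 gave −0.77 and did not pass (adjusted p = 0.140). NCOA2 was split, with a second probe set at −1.43 (adjusted p = 0.199) and another at 0.00.

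Treatment of monolayers called 0 of the 34 members, in limma and in all 18 alternative fits run, where 0.197% of all genes (39) and 0.292% of the brighter ones were called. At an unadjusted p under 0.05 there were 2 members, HDAC1 and HDAC4-AS1. The log2 fold-changes ran from −0.47 (HDAC1, SE 0.16, adjusted p = 0.537) to 0.55 (HDAC7, SE 0.23, adjusted p = 0.750), with a median of −0.05. For ELP3 the 95% interval was −0.08 to 0.23, for HAT1 −0.06 to 0.17, for HDAC9 −0.85 to 0.99 and for SIRT5 −0.71 to 0.51. The log2 fold-changes of these genes in spheroids lie outside these intervals. That leaves out the spread in spheroids and is not a test of the difference. The arrays of both groups did not overlap for 15 of 34 members, against 29.3% of all genes and 44.7% of the brighter ones.

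The difference between both responses, tested as an interaction, was called for ELP3 alone. That is 1 of 34 members (2.94%), close to the 3.26% of all genes and below the 4.94% of brighter genes. The response of ELP3 was lower in spheroids than in monolayers by 0.99 on the log2 scale (−0.99, SE 0.08, adjusted p = 0.0208). The call of ELP3 was lost without either 2D treated array (adjusted p = 0.0556 and 0.0503), with 0 members then called, while 7 members were called with 3D treated replicate 1 left out, 4 with 3D treated replicate 2 left out and 2 with 3D control replicate 1 left out. HDAC9 and SIRT5 had larger differences than ELP3, at 3.46 (SE 0.48, adjusted p = 0.0556) and −1.60 (SE 0.32, adjusted p = 0.103), and missed the threshold, as did HAT1 at −0.39 (0.0669). The second probe set of ELP3 gave −0.74 and did not pass (adjusted p = 0.419). For these and the other 5 members called in spheroids, a call there and none in monolayers does not by itself show that the responses differed. Of the 32 enzymes, 26 had the larger log2 fold-change in size in spheroids, and 18 were lower in both cultures. The same shares over all genes were not counted. Over all genes 3235 were called in treated spheroids and 39 in treated monolayers, so these counts cannot be read as a trait of the enzymes.

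**Figure D4:**
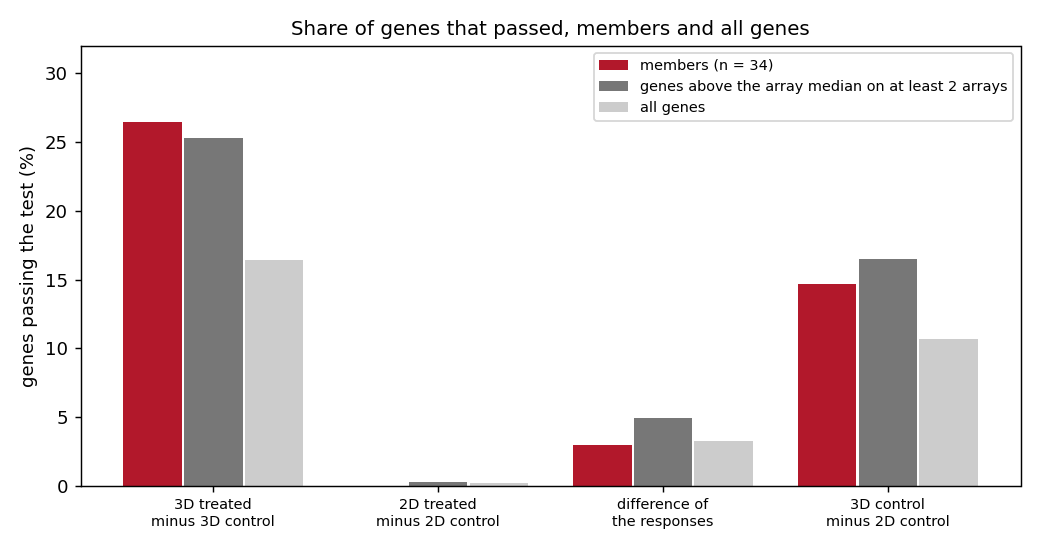
Percent of genes with an adjusted p under 0.05 in each comparison, for the 34 members (red), for genes that exceeded the array median on 2 arrays or more (dark grey) and for all genes (light grey). The members' bars are close to those of the brighter genes, at 26.5% against 25.3% in treated spheroids and 14.7% against 16.5% between the control cultures.

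Growth as spheroids without cytokines was set against growth as monolayers to see which members depend on the culture itself. HDAC11, HDAC5, SIRT2 and HDAC4-AS1 were higher and KAT2A was lower in 3D control than in 2D control cells, 5 of 34 members (14.7%), against 10.7% of all genes and 16.5% of the brighter ones. The 4 higher members (11.8%) compare with 5.77% of all genes and 8.93% of the brighter ones, and the 1 lower member (2.94%) with 4.9% and 7.61%. KAT2A, the catalytic subunit of SAGA and ATAC, read 7.27 and 7.55 on 3D control arrays, against 8.76 and 9.10 on 2D control arrays. The log2 fold-change of KAT2A was −1.52 (SE 0.16, adjusted p = 0.0199), 2.87-fold, at the 1.02nd percentile of all genes. Treated spheroids at 7.0 and 7.13 and treated monolayers at 8.53 and 8.61 were split by culture in the same way. The call of KAT2A was lost without either 3D treated array, without 3D control replicate 1 and without either 2D treated array, at adjusted p from 0.0515 to 0.0538.

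HDAC11 read 7.36 and 7.62 on 3D control arrays, against 6.33 and 6.0 on 2D control arrays (1.33, SE 0.23, adjusted p = 0.0480), and HDAC5 read 6.17 and 5.98, against 5.18 and 5.19 (0.89, SE 0.13, adjusted p = 0.0348). Both were also higher in treated spheroids than in treated monolayers on every array. SIRT2 read 9.10 and 9.11, against 8.12 and 8.42 (0.84, SE 0.14, adjusted p = 0.0464), but its second probe set, near background on 4 of the 8 arrays, gave −0.81 (adjusted p = 0.263). The calls of HDAC11, HDAC5 and SIRT2 were each lost without any 1 of the 8 arrays, with adjusted p up to 0.181 for HDAC11, 0.124 for HDAC5 and 0.172 for SIRT2. HDAC4-AS1 was higher by 0.51 (SE 0.04, adjusted p = 0.0117), and this comparison shares the 3D control arrays with that of the treated spheroids, in which the same RNA was lower. The count of 5 members was 3 without either 3D treated array or 2D control replicate 1, and 2 without 3D control replicate 1, either 2D treated array or 2D control replicate 2.

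**Figure D5:**
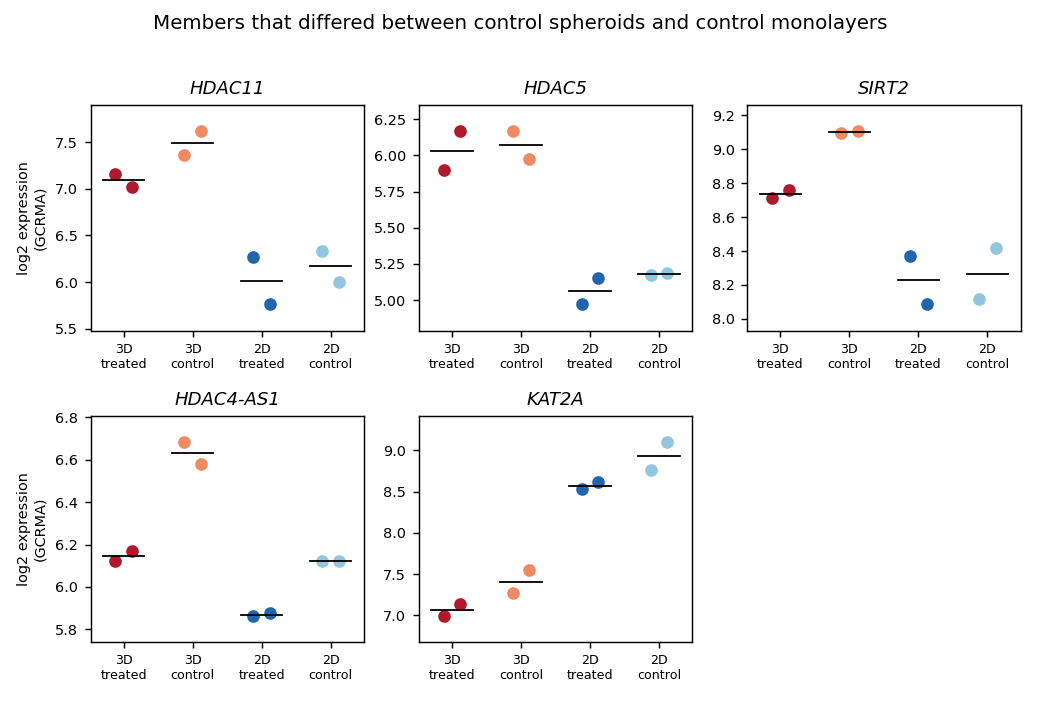
Log2 expression on each array of the 5 members that differed between control spheroids and control monolayers, with the group mean as a black line (n = 2 arrays per group). For HDAC11, HDAC5, SIRT2 and KAT2A both spheroid groups lie on one side of both monolayer groups, and for HDAC4-AS1 3D treated and 2D control arrays lie between.

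Other members differed between the cultures by similar amounts without a call. TAF1 was at 7.75 and 7.48 in 3D control spheroids, against 8.61 and 8.70 in 2D control monolayers (−1.04, SE 0.19, adjusted p = 0.0516), and EP300 at 8.25 and 8.05, against 8.56 and 8.86 (−0.56, adjusted p = 0.159). In the p300/CBP, steroid receptor co-activator and TAF1 group 4 of 5 members were lower in spheroids. HDAC4 differed by −0.86 (adjusted p = 0.0634), HDAC3 by 0.63 (0.0776) and SIRT4 by 0.69 (0.0617). HDAC1 differed by −0.12 (95% interval −0.54 to 0.29). The median over the 34 members was 0.02, and 26 did not overlap between the groups, against 44.5% of all genes and 67.9% of brighter genes.

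The partners of these enzymes were counted from lists of complex subunits, readers and suppliers, of which 134 of 140 genes were measured. Their counts in treated spheroids are to be read against the 10.8% of all genes and 16.8% of brighter genes that were called lower, and the 5.53% and 8.42% called higher. In treated spheroids 3 of the 4 measured subunits of HDAC3-containing NCOR complexes fell. TBL1X read 8.32 and 7.79 on 3D treated arrays, against 9.39 and 9.41 on 3D control arrays (−1.35, SE 0.19, adjusted p = 0.0241). TBL1XR1, its paralog, fell by 0.51 (SE 0.04, adjusted p = 0.00611) with a response that differed from that of monolayers (−0.50, SE 0.05, adjusted p = 0.0325), and CORO2A fell by 1.26 (SE 0.13, adjusted p = 0.0116). The list's median was −0.88, against 0 over all genes. Among 25 subunits of the SIN3, NuRD and CoREST complexes, where HDAC1 and HDAC2 work, SAP30L alone fell (−0.58, SE 0.09), with a median of −0.15.

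Complexes of the acetyltransferases held both calls and many subunits without one in treated spheroids. Of 19 SAGA and ATAC subunits WDR5 fell (−0.54, SE 0.06), and the list's median was −0.10. Of 25 MYST complex subunits 4 fell and 2 rose, with a median of −0.06. JADE2, a scaffold of the KAT7 complexes, was at 7.75 and 7.57 in 3D treated spheroids, against 8.91 and 8.94 in 3D controls (−1.27, SE 0.11), and JADE1 (−0.96), EPC2 (−1.19) and DMAP1 (−0.64) fell as well, whereas KANSL3 (0.44) and BRPF1 (0.36) rose. None of the 4 other Elongator subunits measured was called in treated spheroids, with a median of −0.38, beside the decrease of ELP3 itself. Between the cultures ELP2 was higher in 3D control than in 2D control cells by 1.78 (SE 0.06, adjusted p = 0.00304) and ELP5 by 0.79 (SE 0.11, adjusted p = 0.0322). Of 14 acetyl-lysine readers MLLT3, a YEATS domain protein, fell by 1.21 (SE 0.07, adjusted p = 0.00363), and the list's median was −0.10.

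The list for the supply and use of acetyl-CoA and NAD had 5 of 17 genes called lower in treated spheroids and 0 called higher. Beside it stand 10.8% of all genes and 16.8% of brighter genes called lower, and the list's median was −0.33. NNMT, which methylates nicotinamide, fell by 1.03 (SE 0.14), and DLAT and PDHA1, subunits of the pyruvate dehydrogenase complex, fell by 0.81 (SE 0.08) and 0.69 (SE 0.10). SLC25A1, the mitochondrial citrate carrier, fell by 0.63 (SE 0.11), and PARP1, an NAD consumer, by 0.55. Of 12 MEF2 factors and class IIa kinases SIK3 (−1.25, SE 0.23), PRKD1 (−1.20, SE 0.16) and CAMK2D (−1.10, SE 0.09) fell and SIK1 rose. SIK1 read 11.66 and 11.75 on 3D treated arrays, against 10.20 and 10.42 on 3D control arrays (1.40, SE 0.14, adjusted p = 0.0115). It was lower in 3D control than in 2D control cells (−1.41, SE 0.14, adjusted p = 0.0185), so that the treated spheroids were close to the monolayers, which read 11.38 and 11.73 after treatment, against 11.72 on both vehicle arrays. The response of SIK1 differed between the cultures (1.56, SE 0.20, adjusted p = 0.0476). These tests of SIK1 all use the same 3D control arrays and are not separate results. Kinases of these families phosphorylate class IIa deacetylases and hold them in the cytoplasm. Of 14 proliferation genes PCNA alone fell (−1.10, SE 0.07), with a median of −0.03 over the list. In monolayers 0 genes of these 9 lists were called.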

How the data were processed

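RNA of A549 cultures of 4 groups was hybridised to 8 Affymetrix U133 plus 2.0 arrays, a pair for every group. The deposited values are log2 expression per probe set, which the authors made with GCRMA, and the processing notes name limma 3.6.9. No array was normalized further here. After removal of 62 Affymetrix controls from 54675 probe sets, 54613 entered the test with limma 3.58.1 in R 4.3.3 (lmFit, contrasts.fit and eBayes on 4 group means of all 8 arrays), with Benjamini-Hochberg adjustment and a limit of 0.05 on the adjusted p. There were 4 residual and 0.347 prior degrees of freedom. Figures were made in Python 3.11.15 with matplotlib 3.10.9. The number of arrays limits the precision.

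The members and lists were chosen with earlier results of these data known. Named are all members, with full values for those called in a comparison and for HDAC9, HDAC1, ELP3 and NCOA2, and up to 4 called genes of each list with the largest change in spheroids. KANSL3, BRPF1, PARP1, ELP2, ELP5 and the marker genes were added with their values known. Alternatives were a filter on dim probe sets, a variance trend on intensity, array medians subtracted, quantile normalization, other probe set rules, adjustment over 1 probe set per gene, the arrays of a comparison alone, replicate number as a block, an added minimum fold of 2, and fits that leave out 1 array. A lone array was assumed to vary like the other groups. Probe sets naming several genes and the histone modification data were not used here.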

Additional observations from a re-analysis of the deposited data

Results flagged for a closer look

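ELP3 passed the test of the interaction, with responses to TNF and TGFβ that differed between spheroids and monolayers by −0.99 on the log2 scale (SE 0.08, limma adjusted p = 0.0208). The response of ELP3 was −0.92 (SE 0.06) in spheroids and 0.07 (SE 0.06) in monolayers. The 3D control arrays, which enter this difference, lay above all monolayer arrays (0.21 over 2D control, limma adjusted p = 0.140). Both 3D treated arrays lay below both 3D control arrays, while the 2D treated arrays lay between the 2D control arrays. The call was lost without either 2D treated array (adjusted p = 0.0556 and 0.0503), with the replicate block (0.0656) and with a fold of at least 2. The second probe set of ELP3 gave −0.74 (adjusted p = 0.419).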

How the results depend on the processing

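In treated monolayers 0 members were called in each of the 18 alternative fits. In treated spheroids the count of 9 members was 15 with a filter on dim probe sets, 3 with a fold of at least 2, 1 with the spheroid arrays alone (ELP3), and 4 to 11 with 1 array left out. In the other alternatives it was 6 to 13, and 6 with the replicate block. For the difference between responses the count of 1 was 4 with the filter, 2 with an intensity trend, 3 with array medians subtracted, 3 with adjustment over 1 probe set per gene, 0 with the replicate block, 0 with a fold of at least 2, and 0 to 7 with 1 array left out. For 3D control against 2D control the count of 5 was 9 with the filter, 8 with array medians subtracted, 8 with adjustment over 1 probe set per gene, 0 with the control arrays alone, 2 with the replicate block, 2 with a fold of at least 2, and 2 to 4 with 1 array left out. SIRT2 turned to −0.81 in this comparison on the probe set whose name lacks the suffix for probes shared by several transcripts.

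Over all genes, the filter, the arrays of a comparison alone, the fold and the replicate block called 4958, 529, 1608 and 2100 genes in treated spheroids instead of 3235. In monolayers they called 232, 6, 17 and 14 genes instead of 39, and 112 with array medians subtracted. For the difference the filter, the fold and the block gave 2114, 380 and 226 instead of 645, with 1423 after subtracting medians and 1083 with 1 probe set per gene. Between the cultures they gave 3969, 869 and 902 instead of 2110, and 254 with the control arrays alone. Leaving out 1 array gave 1719 to 3715, 14 to 472, 557 to 2262 and 1022 to 1383 genes in these 4 comparisons. The filter moved the median of all genes by −0.12 in treated spheroids and by −0.12 in the difference.

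Labels do not say that equal replicate numbers mark shared cultures, and deviations of equal numbers correlated at 0.283 between 2D treated and 2D control arrays and at −0.01 to 0.09 between other groups. The block took the calls of HAT1, KAT2B and KAT7 (adjusted p = 0.0526, 0.0839 and 0.0823) in treated spheroids, of ELP3 (0.0656) in the difference, and of HDAC11, HDAC5 and SIRT2 (0.0870, 0.0770 and 0.108) between the cultures. The cause of these shifts was not tested.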
